A study of Homo sapiens with 12 samples.

Results

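The genes described here are the 7 neighbours of MYCN on the short arm of chromosome 2 at and around band 2p24, DDX1, NBAS, TRIB2, LPIN1, VSNL1, SMC6 and GEN1. They were read through every probe set that names 1 gene alone, that gene being 1 of the 7, which gave 17 probe sets of the 44988 that name a single gene and 7 genes of 18132. DDX1 had 1 probe set, TRIB2 and SMC6 had 2 each, and NBAS, LPIN1, VSNL1 and GEN1 had 3 each. RNA was profiled on the Affymetrix PrimeView array in 12 samples of human neuroblastoma cell lines, in 4 groups of 3. The groups were BE(2)-C cells with 1 µM JQ1 for 24 h, BE(2)-C cells with DMSO for 24 h, Kelly cells with 1 µM JQ1 for 24 h and Kelly cells with DMSO for 24 h. BE(2)-C is a clonal subline, so each line stands for 1 tumour in culture, and both lines were grown in the same medium with fetal bovine serum. JQ1 is a small molecule that displaces BET proteins, readers of acetylated histones, from chromatin, and DMSO is its solvent.

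MYCN encodes a transcription factor of the MYC family, and copies of its locus are multiplied in a share of neuroblastomas, often those with a poor outcome. The multiplied stretch of DNA, the amplicon, differs in length between tumours: it can carry intact genes beside MYCN, of which DDX1 and NBAS are the best known, and it can end before them. Kelly and BE(2)-C are both known as MYCN-amplified lines. The comparisons ask how high the RNA of each neighbour lies in each line, and whether JQ1 lowers it, with MYCN RNA read beside it. No DNA copy number was measured, so an RNA level says nothing direct about which genes an amplicon holds.

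Seen from MYCN and counting protein-coding genes, DDX1 is the nearest gene on the telomeric side and NBAS the next, at position 2. TRIB2 lies at position 4 and LPIN1 at position 5 on that side. On the centromeric side VSNL1 lies at position 3, SMC6 at position 4 and GEN1 at position 5, behind CYRIA and RAD51AP2. This order comes from the GRCh38.p14 gene table.

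The promoter windows of 3 loci are shown as a description, and no result here rests on them. They are those of DDX1, the closest neighbour, and of VSNL1, the member whose level separated the lines. The third locus is the stretch from which SMC6 and GEN1 are read in opposite directions. The windows come from RefSeq on GRCh38.p14 and are 300 bases long, most of it before the annotated start. For 7 of 7 members 11 windows were found. Capitals mark the hexamer CACATG, the reverse complement of CATGTG, an E-box, the kind of sequence that MYC family proteins bind. The DDX1 window is chr2:15591618-15591917 on the plus strand, the VSNL1 windows are chr2:17539722-17540021 and chr2:17540446-17540745 on the plus strand, and the stretch common to the GEN1 and SMC6 windows is chr2:17753761-17753918, written on the plus strand, the strand of GEN1.
DDX1: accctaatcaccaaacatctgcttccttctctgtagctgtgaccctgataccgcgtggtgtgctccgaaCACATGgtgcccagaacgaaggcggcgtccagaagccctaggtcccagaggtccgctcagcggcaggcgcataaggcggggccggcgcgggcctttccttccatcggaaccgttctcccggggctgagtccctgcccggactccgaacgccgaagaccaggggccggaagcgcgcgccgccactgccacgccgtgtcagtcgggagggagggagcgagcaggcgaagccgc
VSNL1, first window: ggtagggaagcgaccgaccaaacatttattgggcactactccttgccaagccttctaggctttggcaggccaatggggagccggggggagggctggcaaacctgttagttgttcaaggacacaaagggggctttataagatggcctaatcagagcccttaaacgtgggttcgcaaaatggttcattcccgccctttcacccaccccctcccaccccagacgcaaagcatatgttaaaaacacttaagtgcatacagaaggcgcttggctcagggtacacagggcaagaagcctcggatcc
VSNL1, second window: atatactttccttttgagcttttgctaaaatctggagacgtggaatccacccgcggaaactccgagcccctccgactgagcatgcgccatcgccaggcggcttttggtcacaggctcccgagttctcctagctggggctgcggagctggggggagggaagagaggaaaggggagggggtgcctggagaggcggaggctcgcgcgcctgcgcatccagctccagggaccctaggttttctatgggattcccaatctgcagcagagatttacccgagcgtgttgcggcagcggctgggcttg
GEN1 and SMC6, shared stretch: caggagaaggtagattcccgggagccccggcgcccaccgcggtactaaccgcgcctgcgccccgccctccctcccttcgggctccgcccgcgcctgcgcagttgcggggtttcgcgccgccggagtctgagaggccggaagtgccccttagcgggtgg

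CACGTG and CATGTG were searched in the 11 windows of the members on both strands; CACGTG reads the same on both. CACGTG was in none of them, and CATGTG, as CACATG, was in the DDX1 window alone, 181 bases before the start. Among the 35116 windows of the RefSeq table, 7.256% hold CACGTG and 11.1% hold CATGTG on either strand; 1 of the 11 member windows held either. The shared stretch of 158 bases has 74.05% G and C, against 67% in the DDX1 window and 53.67% and 61% in the VSNL1 windows. A further GEN1 window shares 173 bases with that of SMC6. A match is a description of the letters and not of binding.

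The arrays were of like brightness after the authors' processing, with medians of 61.4 to 67.3 on the linear intensity scale. Values below are log2 of that intensity, and on this scale the middle probe set lay at 6.07. Of the 17 member probe sets 13 had a mean above it, the exceptions being 2 of VSNL1 and 2 of GEN1. The cells carried the RNA of their labelled origin: 9 of 9 measured adrenergic neuroblastoma markers, such as CHGA, HAND2 and GATA3, lay above the middle probe set on every array. The same held for 0 of 6 fibroblast or Schwann cell markers, 0 of 4 haematopoietic markers and 1 of 5 epithelial markers, KRT8. Some markers that missed this rule still had group means above the middle probe set. KRT19 averaged 8.17 in BE(2)-C and 7.20 in Kelly with DMSO. S100B averaged 6.72 in BE(2)-C with JQ1 and 6.62 with DMSO, and HBB 6.29 to 6.53 over the groups. The fibroblast markers LUM and DCN averaged 4.15 and 4.97 in BE(2)-C cells with JQ1, and 6.15 and 6.84 in BE(2)-C cells with DMSO; their part in any result was not tested. The signal of bacterial transcripts added as hybridization controls varied between arrays, with log2 means of 11.4 ± 1.20 in BE(2)-C with JQ1, 11.2 ± 1.54 in BE(2)-C with DMSO, 12.9 ± 0.69 in Kelly with JQ1 and 11.9 ± 1.29 in Kelly with DMSO (SD, n = 3 each). Nothing in the labels says whether the 3 samples of a group came from separate cultures, so the spread behind every p-value may be technical. Bulk RNA cannot tell less RNA per cell from fewer cells of a kind.

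MYCN itself is given first as the gene against which its neighbours are set. Its brightest probe set, 11719870_s_at, read 13.31, 13.16 and 13.23 in BE(2)-C cells with JQ1, against 13.64, 13.53 and 13.52 with DMSO. In Kelly cells it read 13.58, 13.46 and 13.55 with JQ1, against 13.87, 13.88 and 13.87 with DMSO. The JQ1 and DMSO arrays did not overlap in either line, and every JQ1 array was the lower; 4 of 4 MYCN probe sets lay so in BE(2)-C, where 9.29% of all probe sets did, and 3 of 4 in Kelly, where 10.9% did. The log2 fold change was -0.33 (95% interval -0.59 to -0.06) in BE(2)-C and -0.34 (-0.61 to -0.08) in Kelly, and neither passed the limma test over all 44988 probe sets (adjusted p = 0.238 and 0.146). With 1 value a gene as the mean of its probe sets, MYCN fell by 0.67 in BE(2)-C (adjusted p = 0.00386) and by 0.43 in Kelly (adjusted p = 0.0333), and with 16 added to each intensity the brightest set passed in Kelly (adjusted p = 0.0357). The second brightest set, 11719869_a_at, had -0.32 in BE(2)-C (adjusted p = 0.562) and -0.05 in Kelly (adjusted p = 0.891), where its sign turned in 3 of 19 alternatives. The dimmer probe set 11719868_a_at fell by 0.99 in BE(2)-C (adjusted p = 0.00491), and 11750948_a_at fell by 1.03 (adjusted p = 0.0167), a call lost, with an adjusted p of up to 0.0909, when any of 5 BE(2)-C arrays was left out: a JQ1 array, or DMSO replicate 2 or 3. In Kelly these sets had log2 fold changes of -0.55 and -0.77 that missed the threshold (adjusted p = 0.0702 and 0.0511), and both passed it without DMSO replicate 3 (adjusted p = 0.0424 and 0.0129). The first passed in 3 of 19 alternatives in Kelly, the others being the addition of 16 to each intensity (adjusted p = 0.0426) and the control signal in the model (adjusted p = 0.0244). The second passed in 8 of 19, among them the replicate block (adjusted p = 0.0466), quantile normalization (adjusted p = 0.0326) and the control signal in the model (adjusted p = 0.0191), with an adjusted p of 0.0129 to 0.212 over all 19.

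No neighbour passed the test with JQ1 in either line. In BE(2)-C, 0 of 17 member probe sets passed an adjusted p of 0.05 in limma, where 2.81% of all probe sets did, and 0 had an unadjusted p under 0.05, where 12.5% did. Their median log2 fold change was 0.06, against -0.01 over all probe sets, and 12 of 17 were above 0; 3 lay wholly above DMSO, where 9.9% of all probe sets did. In Kelly, 0 of 17 passed, where 4.35% of all probe sets did, and 4 had an unadjusted p under 0.05, all lower, where 11.6% of all probe sets were lower by that rule. The 4 were both TRIB2 sets and 2 of the 3 VSNL1 sets. The Kelly median was -0.11, against 0.05 over all probe sets and -0.12 over the brighter 22494, the range in which most members lie. In Kelly 16 of 17 were below 0, and 1 lay wholly below DMSO, where 10.9% of all probe sets did. The share of all probe sets on each side of 0 was not counted. By the brightest sets alone, 0 of 7 members passed in either line or in their difference, where 3.77% of all genes passed in BE(2)-C, 5.52% in Kelly and 0.43% in the difference.

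The intervals bound large falls only. A fall of 1 on the log2 scale lay outside the 95% interval, on the low side, for 16 of 17 member probe sets in BE(2)-C and 13 of 17 in Kelly. The brightest MYCN set fell by less, 0.33 in BE(2)-C and 0.34 in Kelly. Falls of that size lay within the DDX1 intervals, which reached -0.36 in BE(2)-C and -0.37 in Kelly. They lay outside those of the brightest NBAS set, which reached -0.09 and -0.10. In Kelly the intervals of the dimmer NBAS sets reached -0.69 and -0.67. The MYCN sets 11719868_a_at and 11750948_a_at fell by more, 0.99 and 1.03 in BE(2)-C and 0.55 and 0.77 in Kelly. Falls of those sizes lay outside the DDX1 intervals in both lines. The second brightest MYCN set fell by 0.32 in BE(2)-C and 0.05 in Kelly, which lay within them. The difference of the JQ1 effects, BE(2)-C minus Kelly, passed for 0 of 17 member probe sets, where 0.327% of all did, and 0 of 17 had an unadjusted p under 0.05, where 9.96% of all did. Its median was 0.38 over the members, -0.03 over all probe sets and 0.16 over the brighter 22494.

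**Figure D1:**
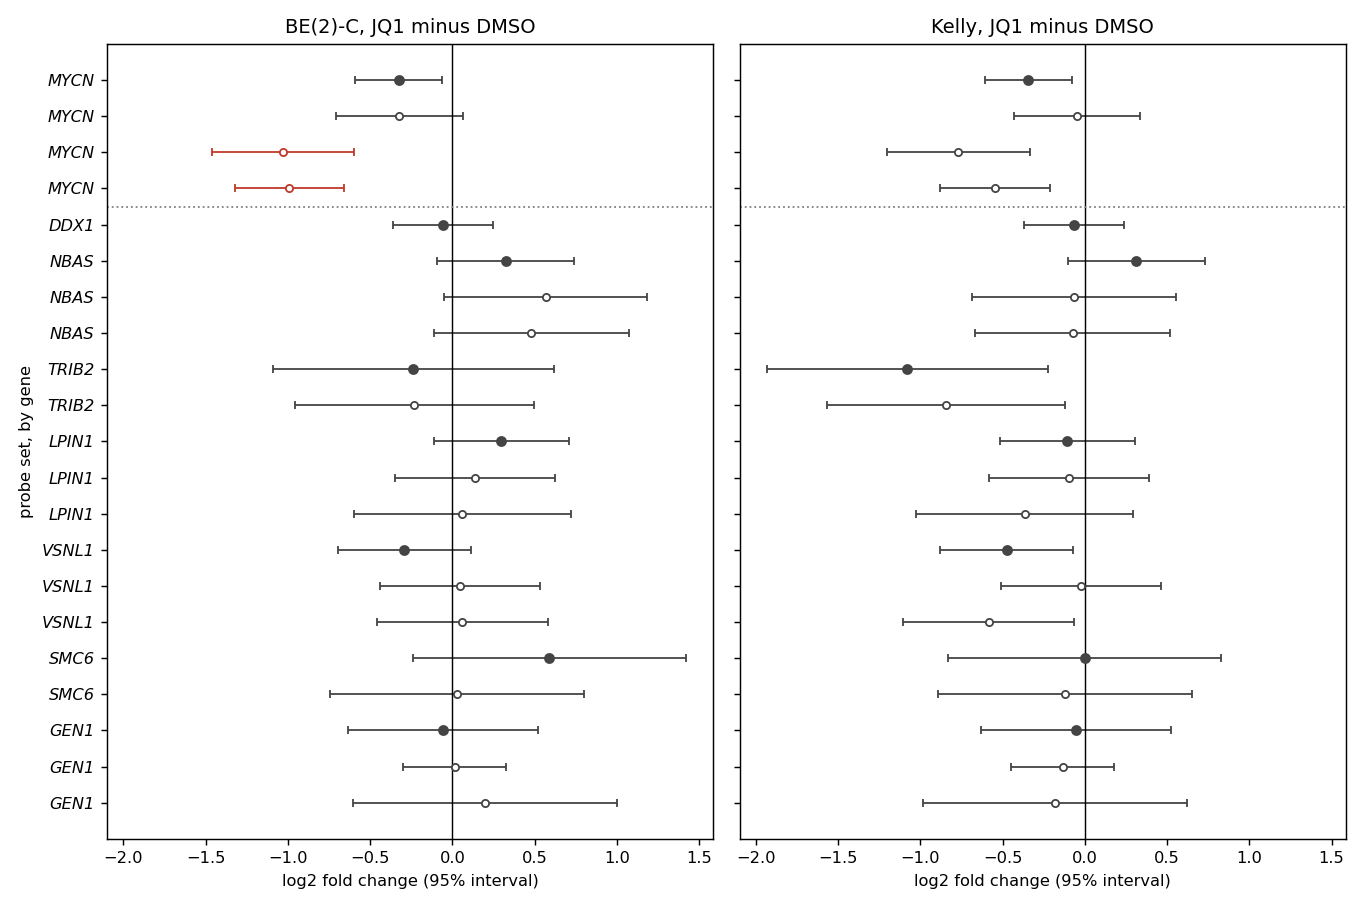
Log2 fold change with JQ1 (x axis, points, with 95% intervals as bars) for each probe set of MYCN and its 7 neighbours (y axis), in BE(2)-C at the left and Kelly at the right. Large filled points are the brightest probe set of a gene and red marks an adjusted p under 0.05, which 2 MYCN sets reach in BE(2)-C and no neighbour reaches in either line.

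DDX1, an RNA helicase of the DEAD-box family that takes part in the tRNA ligase complex, was the member with the least spread. Its probe set, 11743035_a_at, read 11.42, 11.45 and 11.35 in BE(2)-C with JQ1, against 11.35, 11.39 and 11.65 with DMSO. In Kelly it read 11.74, 11.69 and 11.50 with JQ1, against 11.78, 11.76 and 11.59 with DMSO. The treated and control arrays overlapped in both lines, and the whole range over 12 arrays was 0.42. The log2 fold change with JQ1 was -0.06 (-0.36 to 0.24, adjusted p = 1) in BE(2)-C and -0.06 (-0.37 to 0.24, adjusted p = 0.81) in Kelly. On the linear scale the 95% interval of JQ1 over DMSO ran from 0.777 to 1.19 in BE(2)-C and from 0.775 to 1.18 in Kelly.

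Because the MYCN and DDX1 values come from the same arrays, the change of MYCN relative to DDX1 could be set out directly. The pair was chosen after the values had shown MYCN lower and DDX1 level, so the p-values here describe that pattern and are no independent support for it. The log2 difference, MYCN minus DDX1, was 1.90, 1.72 and 1.88 in BE(2)-C with JQ1, against 2.29, 2.14 and 1.87 with DMSO. In Kelly it was 1.83, 1.78 and 2.05 with JQ1, against 2.09, 2.12 and 2.28 with DMSO. Only the change of this difference is read here, since the 2 probe sets need not share a scale. It was -0.27 in BE(2)-C and -0.28 in Kelly, -0.27 on average, with p = 0.015 in an exact two-sided permutation test within lines over 400 relabellings, the smallest possible p being 0.005. With JQ1 and DMSO exchanged in Kelly only within same-numbered samples, the exact permutation p was 0.0375 over 160 relabellings, the smallest possible being 0.0125. The labels state no such pairing, which was inferred from residual correlations of 0.420, 0.227 and 0.509 in Kelly. With the mean of the 4 MYCN probe sets the average was -0.49 (exact permutation p = 0.005). With any 1 array left out the average ran from -0.33 to -0.23.

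NBAS encodes a subunit of the tether that receives Golgi-derived vesicles at the endoplasmic reticulum. Its brightest probe set, 11720961_s_at, read 10.53, 10.47 and 10.62 in BE(2)-C with JQ1, against 10.62, 9.96 and 10.08 with DMSO. In Kelly it read 11.06, 11.17 and 10.98 with JQ1, against 10.70, 10.52 and 11.05 with DMSO. Treated and control arrays overlapped in both lines, and the log2 fold change was 0.32 in BE(2)-C (adjusted p = 0.630) and 0.31 in Kelly (adjusted p = 0.365). The dimmer sets 11720960_a_at and 11744523_x_at had log2 fold changes of 0.57 and 0.48 in BE(2)-C (adjusted p = 0.482 and 0.591), and there the 3 JQ1 arrays lay above the 3 DMSO arrays in both sets. In Kelly they had -0.07 each (adjusted p = 0.905 and 0.891), opposite in sign to the brightest set, and with 1 value a gene as the mean of its probe sets NBAS had 0.06 there. Leaving out Kelly JQ1 replicate 3, which enters the common estimate of spread, gave 11720960_a_at an adjusted p of 0.0412 in BE(2)-C. That array read 7.80 and 7.58 in the 2 dimmer sets, against 9.03 and 9.15, and 8.74 and 8.90, in the other Kelly JQ1 arrays, while the brightest set read 10.98 on it, against 11.06 and 11.17.

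TRIB2 encodes a pseudokinase of the tribbles family that brings substrates to ubiquitin ligases. The brightest set, 11716941_at, read 10.64, 11.001 and 10.46 in BE(2)-C with JQ1, against 10.24, 11.29 and 11.28 with DMSO. In Kelly it read 10.04, 9.61 and 9.24 with JQ1, against 11.02, 11.32 and 9.79 with DMSO. DMSO replicate 3 lay among the treated Kelly arrays and the other 2 DMSO arrays above all of them. The log2 fold change was -1.08 (-1.93 to -0.22, adjusted p = 0.157) in Kelly, the largest in size among the member probe sets, and -0.24 (-1.09 to 0.62, adjusted p = 1) in BE(2)-C; the difference of 0.84 between the lines did not pass (adjusted p = 0.584). The second set, 11716940_a_at, had -0.84 in Kelly (adjusted p = 0.189) and -0.23 in BE(2)-C (adjusted p = 1).

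Without Kelly DMSO replicate 3 both TRIB2 sets passed in Kelly, with log2 fold changes of -1.54 (adjusted p = 0.0180) and -1.29 (adjusted p = 0.00845). The TRIB2 values also moved with the hybridization control signal: within groups the brightest set fell by 0.42 for each unit of log2 control signal (adjusted p = 0.000261), and the second set by 0.31 (adjusted p = 0.00346). The control signal of the Kelly arrays was 12.3, 12.9 and 13.7 with JQ1, against 11.7, 10.7 and 13.3 with DMSO. With the control signal in the model the Kelly fold change was -0.64 (adjusted p = 0.0518). Of the 17 member probe sets, 8 had a slope on the control signal that passed, where 49.6% of all probe sets did; 7 of these were negative, among them all 3 LPIN1 sets, and 1, the brightest NBAS set, was positive.

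**Figure D2:**
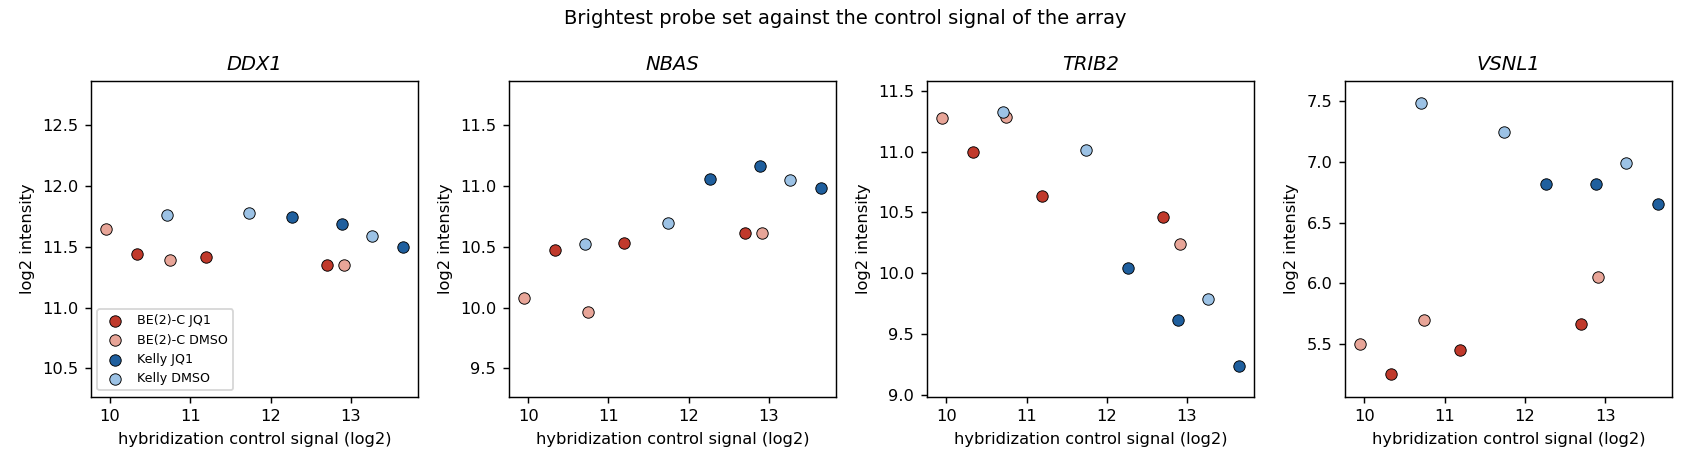
Log2 intensity of the brightest probe set (y axis) of DDX1, NBAS, TRIB2 and VSNL1 against the mean log2 signal of the hybridization controls (x axis), 1 point for each of the 12 arrays, coloured by group. In each of the 4 groups the array with the highest control signal has the lowest TRIB2 value, while for VSNL1 the BE(2)-C arrays (5.25 to 6.05) lie below the Kelly arrays (6.66 to 7.48) along the whole range.

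LPIN1, SMC6 and GEN1, each 4 or 5 protein-coding genes from MYCN, gave no call with JQ1. LPIN1, a phosphatidic acid phosphatase of triglyceride and phospholipid synthesis, read 10.58, 10.59 and 10.54 in BE(2)-C with JQ1, against 10.05, 10.39 and 10.38 with DMSO, in its brightest set, 11754573_a_at. Those groups did not overlap, yet the difference of 0.30 did not pass (adjusted p = 0.692). In Kelly it read 10.61, 10.49 and 10.06 with JQ1, against 10.61, 10.69 and 10.18 with DMSO, a fold change of -0.11 (adjusted p = 0.760). Across its 3 sets the fold changes ran from 0.06 to 0.30 in BE(2)-C and from -0.37 to -0.10 in Kelly.

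SMC6, with SMC5 the core of a complex that acts in recombination repair, read 9.30, 9.46 and 9.04 in BE(2)-C with JQ1, against 7.97, 8.996 and 9.06 with DMSO, in 11724352_a_at. In Kelly it read 8.17, 9.02 and 8.84 with JQ1, against 8.25, 9.55 and 8.23 with DMSO. With DMSO 1 array stood apart in each line, low in BE(2)-C and high in Kelly, and the fold changes of 0.59 in BE(2)-C (-0.24 to 1.42, adjusted p = 0.704) and -0.00 in Kelly (-0.83 to 0.83, adjusted p = 0.999) have wide intervals. The second set, 11724351_a_at, had 0.03 in BE(2)-C (adjusted p = 1) and -0.12 in Kelly (adjusted p = 0.861). GEN1, a nuclease that cuts Holliday junctions, was dim: only 1 of its 3 sets lay above the middle probe set. That set, 11736726_at, read 6.53, 6.41 and 6.15 in BE(2)-C with JQ1, against 6.04, 6.42 and 6.81 with DMSO. In Kelly it read 6.14, 6.61 and 6.98 with JQ1, against 6.50, 7.05 and 6.34 with DMSO. Groups overlapped throughout, with fold changes of -0.06 (adjusted p = 1) in BE(2)-C and -0.05 (adjusted p = 0.921) in Kelly. SMC6 and GEN1 have promoter windows that share the stretch printed above, and neither gene passed a test in any of the 4 comparisons.

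VSNL1, a calcium sensor of neurons also known as visinin-like protein 1, was the member whose RNA separated the lines. Its brightest set, 11723418_a_at, read 6.05, 5.70 and 5.50 in BE(2)-C with DMSO, against 7.25, 7.48 and 6.99 in Kelly with DMSO. The highest BE(2)-C array lay below the lowest Kelly array. The log2 difference, BE(2)-C minus Kelly under DMSO, was -1.49 (SE 0.19, 95% interval -1.89 to -1.09, adjusted p = 0.000191). The BE(2)-C arrays lay below the middle probe set and the Kelly arrays above it, and no detection calls were used, so no linear fold is given. The other sets gave -1.22 (11749996_a_at, adjusted p = 0.00473) and -1.003 (11749997_x_at, adjusted p = 0.0103). The first of these was lost when only the arrays compared were fitted (adjusted p = 0.0503), and the second then (adjusted p = 0.0641) and without Kelly DMSO replicate 1 (adjusted p = 0.0531). These 2 sets averaged below the middle probe set over the 12 arrays.

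With JQ1 the same VSNL1 set read 5.45, 5.25 and 5.67 in BE(2)-C and 6.82, 6.82 and 6.66 in Kelly. The 3 Kelly JQ1 arrays lay below the 3 Kelly DMSO arrays, with a fold change of -0.47 (-0.88 to -0.07, adjusted p = 0.185). In BE(2)-C the fold change was -0.29 (-0.70 to 0.11, adjusted p = 0.686) and the groups overlapped. The set 11749996_a_at had -0.58 in Kelly (adjusted p = 0.204), and passed without DMSO replicate 3 (-0.84, adjusted p = 0.0374); 11749997_x_at had -0.03 there (adjusted p = 0.957), so the 3 sets did not move alike.

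Between the lines under DMSO, 3 of 17 member probe sets passed, all of VSNL1 and all lower in BE(2)-C, where 12.3% of all probe sets passed and 6% passed as lower. The comparison shares its DMSO arrays with those of JQ1. The median difference of the members was -0.22, against -0.02 over all probe sets, and 6 of 17 lay wholly lower in BE(2)-C, where 12% of all did. The 6 were all VSNL1 sets, the dimmer NBAS sets and the GEN1 set 11736728_at, so several come from the same gene. By the brightest sets 1 of 7 members lay so, VSNL1, and the share of all genes was not counted. For the 2 closest neighbours, DDX1 had a difference of -0.24 (-0.55 to 0.06, adjusted p = 0.370) and the brightest NBAS set -0.54 (-0.96 to -0.12, adjusted p = 0.0967). The NBAS difference passed without BE(2)-C DMSO replicate 1 (-0.74, adjusted p = 0.0147) and with the control signal in the model (-0.44, adjusted p = 0.0358), and the dimmer NBAS sets passed without Kelly JQ1 replicate 3 (adjusted p = 0.0254 and 0.0148). MYCN had -0.31 in its brightest set (-0.58 to -0.05, adjusted p = 0.138), with the BE(2)-C arrays all below those of Kelly. That set passed in 2 of 21 alternatives. These were 16 added to each intensity (adjusted p = 0.0267) and a trend and robust prior (adjusted p = 0.0427). The other MYCN sets overlapped between the lines and did not pass. The sets 11719869_a_at and 11750948_a_at had -0.26 and -0.29 (adjusted p = 0.4999 and 0.4993). The set 11719868_a_at had the opposite sign, 0.07 (adjusted p = 0.9201).

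The remaining members gave no call between the lines by their brightest sets: LPIN1 had -0.22 (adjusted p = 0.644), GEN1 -0.21 (adjusted p = 0.811), SMC6 -0.00 (adjusted p = 0.999) and TRIB2 0.23 (adjusted p = 0.884). The intervals were wide for SMC6 (-0.83 to 0.83) and TRIB2 (-0.63 to 1.08) and narrower for LPIN1 (-0.63 to 0.19). Other sets of these genes did not pass either, and some had the opposite sign. The other LPIN1 sets had 0.17 and 0.34 (adjusted p = 0.829 and 0.658), and those of GEN1 had -0.25 and 0.45 (adjusted p = 0.372 and 0.614). The second SMC6 set had 0.57 (adjusted p = 0.434) and the second TRIB2 set 0.36 (adjusted p = 0.682).

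**Figure D3:**
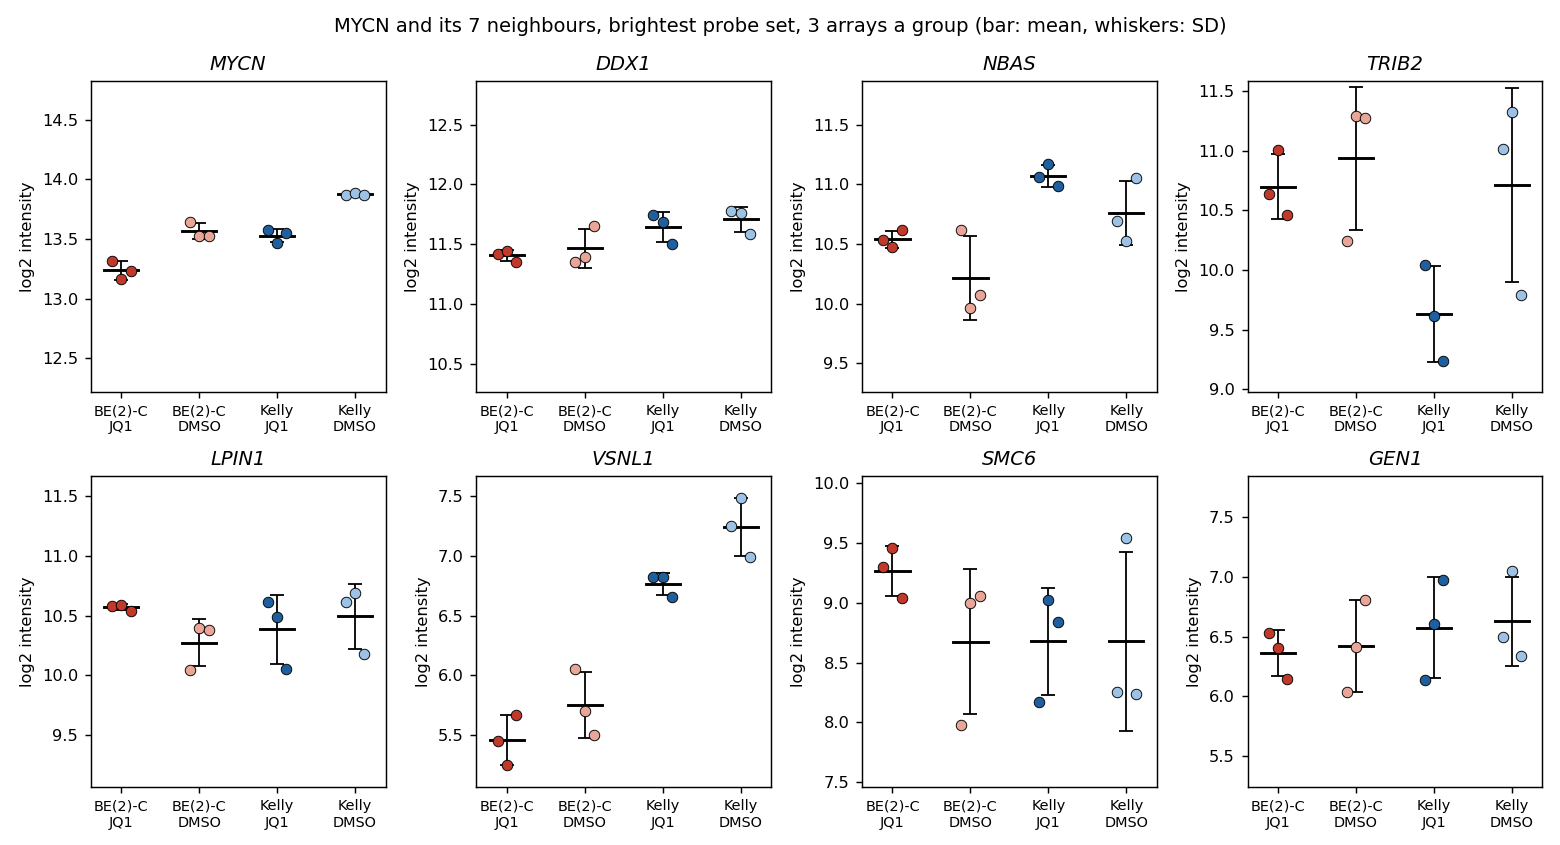
Log2 intensity (y axis) of the brightest probe set of MYCN and of each of the 7 neighbours on each array (points), with the mean (bar) and SD (whiskers) of the 4 groups (x axis, n = 3 each). The panels span different levels, which are not comparable between genes; within panels, MYCN is lower with JQ1 in both lines, VSNL1 is higher in both Kelly groups, and most other groups overlap.

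The order of the 4 group means differed between members. From high to low, DDX1, VSNL1 and GEN1 ran Kelly with DMSO, Kelly with JQ1, BE(2)-C with DMSO, BE(2)-C with JQ1, while NBAS was highest in Kelly with JQ1. TRIB2 was highest in BE(2)-C with DMSO, and LPIN1 and SMC6 in BE(2)-C with JQ1. Most neighbours in these orders overlapped: for DDX1, NBAS, LPIN1, SMC6 and GEN1 all 3 neighbouring pairs did. Pairs that lay apart were BE(2)-C with JQ1 over Kelly with JQ1 for TRIB2, and, for VSNL1, Kelly with JQ1 below Kelly with DMSO and BE(2)-C with DMSO below Kelly with JQ1.

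By the brightest sets, 1 of the 7 members passed between the lines, where 14.2% of all genes did. Among 38 measured genes of 2p25 to 2p23 outside the 7, 3 were higher and 3 lower in BE(2)-C than in Kelly under DMSO, by their brightest sets, where 6.71% of all genes were higher and 7.47% lower. HPCAL1, like VSNL1 a calcium sensor of the visinin-like family, averaged 11.93 ± 0.44 in BE(2)-C and 9.59 ± 0.56 in Kelly (SD, n = 3 each), a difference of 2.34 (adjusted p = 0.000123), opposite in sign to that of VSNL1. RHOB, a small GTPase of vesicle traffic, averaged 10.27 ± 0.38 in BE(2)-C and 8.81 ± 0.56 in Kelly (difference 1.46, adjusted p = 0.00470). CYRIA is a regulator of the actin nucleation machinery and the first protein-coding gene on the centromeric side of MYCN. It averaged 4.16 ± 0.18 in BE(2)-C and 5.69 ± 0.52 in Kelly, each below the middle probe set (difference -1.53, adjusted p = 0.00117). RHOB and CYRIA passed in every alternative run, with an adjusted p of up to 0.0402 for RHOB and 0.0197 for CYRIA. Their differences ran from 0.67 to 1.78 for RHOB and from -1.83 to -0.77 for CYRIA, the smallest in size coming from averaging the sets of each gene.

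ALK, the receptor kinase mutated in a share of neuroblastomas, lies far from MYCN on the centromeric side, 109 protein-coding genes away. It averaged 6.40 ± 0.11 in BE(2)-C and 7.80 ± 0.69 in Kelly (difference -1.41, adjusted p = 0.00416; 0.0505 when only the arrays compared were fitted). From LPIN1 to GEN1, the stretch that holds all members and MYCN, the genes past the threshold were LRATD1, CYRIA and VSNL1, all lower in BE(2)-C, and DDX1, NBAS and MYCN between them were not past it by their brightest sets as fitted here. LRATD1, at position 3 on the telomeric side, had a difference of -1.01 (adjusted p = 0.0300), and is named here after its value was seen. It averaged 4.6 in BE(2)-C and 5.6 in Kelly under DMSO, below the middle probe set in both lines, as CYRIA did. The LRATD1 call was lost in 6 of 20 alternative settings, among them those without Kelly DMSO replicate 1 or 3 or BE(2)-C DMSO replicate 2 or 3, with an adjusted p of up to 0.137. With the mean of its probe sets the difference was -0.57 (limma, adjusted p = 0.0726). HS1BP3, the remaining gene of the 6, had 0.96 (adjusted p = 0.0108; 0.0526 when only the arrays compared were fitted).

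**Figure D4:**
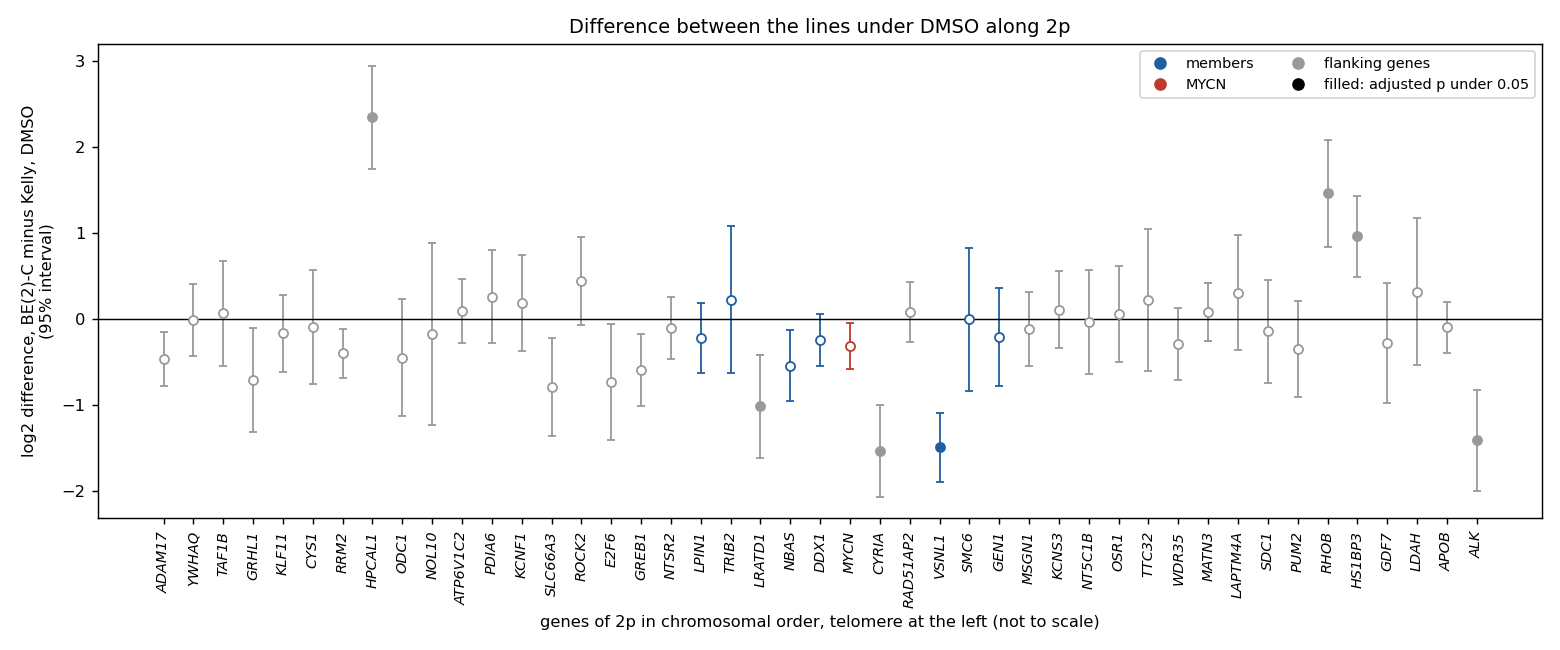
Log2 difference between BE(2)-C and Kelly under DMSO (y axis, points, with 95% intervals) for the brightest probe set of genes along 2p in chromosomal order (x axis, not to scale). Filled points pass an adjusted p of 0.05; VSNL1 is the member that does, at -1.49, and points that pass lie both above and below 0.

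Working partners of the members, family relatives and genes of the same pathways were read in the same way, as 54 genes by their brightest sets. HPCAL1 is among them and was also counted among the genes of 2p above. With JQ1, 0 of 54 passed in BE(2)-C, where 3.77% of all genes did, and 0 of 54 in the difference of the lines. In Kelly 2 rose and 4 fell, where 1.42% of all genes rose and 4.1% fell. Between the lines 8 were higher and 7 lower in BE(2)-C, where 6.71% of all genes were higher and 7.47% lower.

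Of 6 measured partners of DDX1, 2 were lower in BE(2)-C and none passed with JQ1. RTCB, the ligase itself, averaged 10.55 ± 0.14 in BE(2)-C and 11.32 ± 0.25 in Kelly under DMSO (difference -0.78, adjusted p = 0.00523), and FAM98A, another subunit, had a difference of -0.64 (adjusted p = 0.0280). Of 7 measured partners of NBAS, tether subunits and SNARE proteins of the endoplasmic reticulum, 3 were higher in BE(2)-C. RINT1, a tether subunit, averaged 9.71 ± 0.44 in BE(2)-C and 8.68 ± 0.03 in Kelly under DMSO (difference 1.03, adjusted p = 0.00581); STX18 and USE1, both SNARE proteins, had 1.03 and 0.93 (adjusted p = 0.0175 and 0.00801). With JQ1 in Kelly, 2 of the 7 fell: BNIP1, a SNARE, to 7.83 ± 0.09, against 8.75 ± 0.28 with DMSO (-0.92, adjusted p = 0.0121), and SCFD2 by 1.01 (adjusted p = 0.0499).

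The 2 other tribbles genes, TRIB1 and TRIB3, passed in no comparison. TRIB3 had -0.84 with JQ1 in BE(2)-C (adjusted p = 0.256) and -0.93 in Kelly (adjusted p = 0.140). Among 11 genes of lipid synthesis around LPIN1, DGAT1, which makes triglyceride from diacylglycerol, rose to 9.68 ± 0.45 in Kelly with JQ1, against 8.17 ± 0.25 with DMSO (1.51, adjusted p = 0.00413). Between the lines 3 of the 11 were lower in BE(2)-C: DGAT2, an unrelated enzyme for the same step, at 6.81 ± 0.44 in BE(2)-C and 8.13 ± 0.27 in Kelly under DMSO (difference -1.31, adjusted p = 0.00464), LPIN2, a paralogue of LPIN1, at -1.02 (adjusted p = 0.00193), and DGAT1 at -1.02 (adjusted p = 0.0152).

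Among 10 calcium sensors related to VSNL1, HPCAL1 above was higher in BE(2)-C, and HPCAL4 and KCNIP4 were lower (-0.98 and -0.71, adjusted p = 0.0175 and 0.0202). KCNIP4, an auxiliary subunit of potassium channels, also fell with JQ1 in Kelly, to 4.22 ± 0.14, against 5.45 ± 0.36 with DMSO (-1.23, adjusted p = 0.00216), with both means below the middle probe set. Of 8 genes of the complex around SMC6, 3 were higher in BE(2)-C: SMC5, its direct partner, at 8.80 ± 0.51 in BE(2)-C and 7.61 ± 0.60 in Kelly under DMSO (difference 1.19, adjusted p = 0.0307), and the subunits NSMCE1 and NSMCE3 at 0.84 and 0.49 (adjusted p = 0.0413 and 0.0251). With JQ1 in Kelly NSMCE1 fell by 1.01 (adjusted p = 0.0366) and NSMCE3 rose by 0.55 (adjusted p = 0.0321; 0.0671 with the replicate block). Among 10 genes that act on recombination junctions beside GEN1, RMI1 alone passed, at 10.08 ± 0.47 in BE(2)-C and 8.72 ± 0.24 in Kelly under DMSO (difference 1.36, adjusted p = 0.00296).

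Of these calls, RINT1, DGAT2, LPIN2, HPCAL1 and RMI1 between the lines, and DGAT1 and KCNIP4 with JQ1 in Kelly, passed in every alternative run. RTCB and USE1 kept the call with any 1 array left out and lost it when only the arrays compared were fitted (adjusted p = 0.0508 and 0.0699), USE1 also after quantile normalization (adjusted p = 0.0728). The other calls named between the lines were FAM98A, STX18, DGAT1, HPCAL4, KCNIP4, SMC5, NSMCE1 and NSMCE3. Those with JQ1 in Kelly were BNIP1, SCFD2, NSMCE1 and NSMCE3. Each of these was lost without at least 1 of the DMSO arrays compared, with an adjusted p over all alternatives of up to 0.174 (SCFD2). They passed in 7 of 21 alternatives (SCFD2) to 18 of 21 (DGAT1). NSMCE3 with JQ1 passed in 10 of 21 and NSMCE1 between the lines in 11 of 21.

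The gene most like each member over the 12 arrays was sought among all 18132 by the root mean square distance of centred log2 values, which describes a shared profile and no shared control. The nearest to DDX1 was STRN at 0.0778, also on chromosome 2, with a median over all genes of 0.364. For NBAS it was NDUFA2 at 0.0968, for TRIB2 FASTKD2 at 0.134, for LPIN1 NDUFB2 at 0.0795, for VSNL1 RIMKLB at 0.191, for SMC6 GTF2A1 at 0.220 and for GEN1 C2orf74 at 0.127. Of these 7, STRN, FASTKD2 and C2orf74 are on chromosome 2, and none is a member or MYCN. The control signal varied between the 12 arrays, and 49.6% of all probe sets moved with it. Its part in this likeness was not tested.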

How the data were processed

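RNA of 12 samples was measured on the PrimeView array. RMA was used by the authors, per the submitters' processing notes, with no version named. The deposited table holds linear intensity, although the tests were planned on log2 values, so each deposited intensity was turned into log2 with no offset, filter or further normalization. Of 49395 probe sets, 102 were controls, 44988 named 1 gene, 1832 several and 2473 none; the last 2 kinds were not used. Symbols follow the GRCh38.p14 gene table (99.94% matched). The members and lists were chosen with earlier results of these data known.

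The model was limma 3.58.1 (R 4.3.3; lmFit, contrasts.fit, eBayes with no trend) on all 44988 probe sets, as 4 group means over 12 arrays, with two-sided p-values adjusted by Benjamini-Hochberg and a threshold of 0.05. Contrasts were JQ1 minus DMSO in each line, their difference and BE(2)-C minus Kelly under DMSO. Each gene is given by its probe set with the highest mean, and the named genes outside the members are those with the largest changes past the threshold in a list; further ones that complete a count were named after their values were seen. The control signal averages 9 probe sets of BioB, BioC, BioDn and CreX on the log2 scale. The script was tested on simulated data. Same-numbered JQ1 and DMSO samples had residual correlations of 0.420, 0.227 and 0.509 in Kelly, which pairs them by the rule used, and -0.0354, 0.537 and -0.749 in BE(2)-C, which does not. Alternatives were other normalization, offset, filter, prior and gene summary, the control signal as covariate, a replicate block, only the arrays compared, and each array left out. The number of arrays limits the precision.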

Additional observations from a re-analysis of the deposited data

Results flagged for a closer look

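The effect of JQ1 on SLC66A3, a gene of 2p on the telomeric side of MYCN and no member, differed between the lines in the test of the difference itself. It was 2.53 in BE(2)-C and -0.11 in Kelly on the log2 scale, a difference, BE(2)-C minus Kelly, of 2.65 (limma, adjusted p = 0.0122). It passed in 18 of 19 alternatives and was lost without BE(2)-C DMSO replicate 2 (adjusted p = 0.0514). No member passed this test. With 3 arrays in each group, single arrays were not tested for standing apart.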

How the results depend on the processing

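Of 1315 alternative values for the member probe sets, 1219 kept their direction and side of the threshold, 8 gained a call, 3 lost one, and 85 were uncalled values that changed sign; none that passed was reversed. Member probe sets past the threshold between the lines numbered 3, and 1 with dim probe sets left out (fewer are tested, and 2 VSNL1 sets drop out) and 1 with only the arrays compared; by brightest sets the count of 1 became 2 with the control signal as covariate, NBAS being the addition, for which the cause was not tested. With 1 array left out the member probe sets past the threshold ran from 0 to 3 for JQ1 in Kelly, 0 to 1 for JQ1 in BE(2)-C, 0 to 0 for the difference and 2 to 5 between the lines, and by brightest sets from 0 to 1, 0 to 0, 0 to 0 and 1 to 2. The change of MYCN minus DDX1 ran from -0.33 to -0.23, and it was -0.49 with the mean of 4 MYCN sets; with the replicate block in Kelly it was -0.27 with an exact permutation p of 0.0375; these checks were chosen after seeing the data. The replicate block paired same-numbered samples in both lines, although BE(2)-C did not pair by the rule used. It gave 0 member probe sets for JQ1 in Kelly, in BE(2)-C and in the difference. Between the lines the block gave each replicate number 1 effect shared by Kelly and BE(2)-C, a pairing that no label states. There it gave 3, with an adjusted p of 0.000577 for the brightest VSNL1 set. No member's call was changed by the block. With JQ1 in Kelly it added the MYCN set 11750948_a_at (adjusted p = 0.0466) and ended NSMCE3 (adjusted p = 0.0671). It changed no other call of a named gene. Over all probe sets the counts moved more: for JQ1 in Kelly 1958, with 852 to 3843 on leaving out an array, 732 with only its arrays and 4116 with the covariate; for JQ1 in BE(2)-C 1263, with 426 to 1804 and 5281; for the difference 147, with 38 to 355, 71 with the filter and 1029; between the lines 5516, with 3630 to 6366, 3408 and 10524. Quantile normalization split the Kelly calls into 922 higher and 1663 lower, against 431 and 1527. For probe sets below the middle one, such as 2 each of VSNL1 and GEN1, the signal over background limits what the arrays can show.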

Other observations

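Of 38 measured genes around the members on 2p25 to 2p23, 1 rose and 1 fell with JQ1 in BE(2)-C, and 1 fell in Kelly; of all genes, 3.77% passed in either direction in BE(2)-C, and 4.1% fell and 1.42% rose in Kelly. SLC66A3, a membrane protein of the PQ-loop family, averaged 7.23 ± 0.32 in BE(2)-C with JQ1, against 4.70 ± 0.31 with DMSO, and 5.38 ± 0.33 in Kelly with JQ1, against 5.49 ± 0.44 with DMSO (SD, n = 3 each). Its rise of 2.53 in BE(2)-C passed in limma (adjusted p = 0.000493; 20 of 20 alternatives). SDC1, a heparan sulfate proteoglycan of the cell surface, averaged 7.94 ± 0.31 in BE(2)-C with JQ1, against 9.51 ± 0.27 with DMSO (-1.57, adjusted p = 0.00972), and 8.66 ± 0.58 in Kelly with JQ1, against 9.65 ± 0.21 with DMSO (-0.99, adjusted p = 0.0655). The SDC1 call was lost, with an adjusted p of up to 0.0514, without BE(2)-C JQ1 replicate 1 or DMSO replicate 2. WDR35, a protein of cilium transport, fell to 7.94 ± 0.36 in Kelly with JQ1, against 8.88 ± 0.10 with DMSO (-0.94, adjusted p = 0.0157); this was lost in 5 of 21 alternatives, among them those without Kelly DMSO replicate 1 or 2 or Kelly JQ1 replicate 2, with an adjusted p of up to 0.0917.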
